A study of Rapana venosa with 9 samples.

Results

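The net change in miRNA levels of the rapa whelk (Rapana venosa), a marine snail, was followed from precompetent larvae (Pre-CL) to postlarvae (PL), and competent larvae (CL) served to place each change before or after competence. The 6 libraries compared were the 3 of PL and the 3 of Pre-CL among the 9 of the study, and the 3 CL libraries gave the middle point. Pre-CL had 3 spiral whorls, CL had 4, and PL were juveniles that had completed metamorphosis. All of them descended from wild parents, the planktonic larvae were reared on a mixture of microalgae, and the labels name no allele or agent for any stage. A replicate was given as 40 to 100 pooled individuals, more than 95% of which were at the same stage. The extraction protocol also gave the intestine of one animal as the source of the RNA, and which of these descriptions holds for the libraries was not settled. The references of muscle miRNAs summed to 63971 to 84036 CPM (defined below) in Pre-CL and those of sensory organ miRNAs to 125600 to 181158 CPM. What these levels mean for the source of the RNA was not tested.

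MicroRNAs are short RNAs cut from a hairpin precursor, and one strand of the hairpin is loaded into an Argonaute protein. The loaded strand pairs with messenger RNAs mainly through its seed, bases 2 to 8, and lowers their translation or stability. Members of one family share the seed and are therefore held to bind overlapping targets. Several families are known from developmental transitions of other animals: let-7 and lin-4/miR-125 time larval stages in Caenorhabditis elegans, and the let-7, miR-100 and miR-125 genes lie in one cluster in Drosophila melanogaster. In the life of a snail the span from Pre-CL to PL includes the growth of the larva to competence, settlement, the loss of the ciliated velum and the growth of the juvenile body.

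The authors counted small RNA tags on 918 miRNA references of 18 to 26 nt, 155 of which they had predicted themselves. The suffixes x, y and z in the names are the authors' own and were not explained in the sources used here. A library held 3762511 to 6781384 counts on these references, and 519 references had under 10 counts over all 9 libraries. Levels are given as CPM, counts per 1000000 scaled by edgeR's TMM factors, which lay between 0.733 in Pre-CL 3 and 1.50 in PL 2. By counting error alone, a library with no count of a miRNA may hold up to 0.399 to 0.694 CPM of it, depending on its depth. Reads under 18 nt made up 4.29%, 4.30% and 14.5% of the quality-filtered reads in Pre-CL and 19.0%, 11.5% and 9.0% in PL, so that Pre-CL 3 stood apart from the other libraries of its stage. The shares of several other RNA classes in the clean reads did not overlap between the stages: rRNA took 5.11% ± 0.281 (SD, n = 3) in Pre-CL and 7.65% ± 1.4 in PL, snRNA 0.0417% ± 0.0041 and 0.145% ± 0.00882, and unannotated reads 23.4% ± 1.83 and 34.2% ± 2.39. The share of known miRNAs was 65.4% ± 2.01 in Pre-CL and 51.3% ± 4.61 in PL, and the part of these shares in the changes below was not tested. None of the plant-type families listed was among the references. Of 15 vertebrate-type references listed as signs of foreign RNA, 4 passed the filter on low counts, and their median log2 fold change over the span was -0.13. The summed level of the 15 was 378 to 1524 CPM in Pre-CL and 399 to 1566 CPM in PL.

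The references behind the results are shown in the direction 5′ to 3′, as DNA letters in the deposited table, with the seed in capitals. The first set holds miRNAs of high or low abundance with an intermediate level in CL. It also holds miR-1-y, which contains miR-1-z and whose Pre-CL and PL libraries overlapped. The set shows a shared seed in miR-1-z, miR-206-y and miR-1-y and another in miR-216-x, miR-283-x and miR-747-x.
miR-1984-x: tGCCCTATccgtcaggaactgtg
miR-1-z: tGGAATGTaaagaagtatgt
miR-206-y: tGGAATGTaaggaagtatgt
miR-1-y: tGGAATGTaaagaagtatgtac
miR-133-y: tTGGTCCCcttcaaccagctgc
miR-278-y: tCGGTGGGacttttgttcggtt
miR-67-y: tCACAACCtgcatgaatgaggact
let-7-y: cTGTACAAcctgctagctttcc
miR-216-x: tAATCTCAgctggtaattctg
miR-283-x: tAATCTCAgctggtaattctggga
miR-747-x: tAATCTCAtctggtaattcta
miR-2-y: tATCACAGcctgcttggatgagc

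The second set holds miRNAs whose change fell mainly between CL and PL. The references of miR-263-x and miR-183-x are identical, and miR-228-x shares their seed. The reference of miR-133-z lies within 2 mismatches of that of miR-133-y in the first set, and miR-1175-y and miR-755-y again share a seed.
miR-242-x: tTGCGTAGgcgttgtgcacaga
miR-71-x: tGAAAGACatgggtagtgagatc
miR-263-x: aATGGCACtggtagaattcacggg
miR-183-x: aATGGCACtggtagaattcacggg
miR-228-x: aATGGCACtggttgaattcacgga
miR-96-x: cTTGGCACtggcggaatagtca
miR-36-y: tCACCGGGtatacattcatc
miR-315-x: tTTTGATTgttgctcagaaagcc
miR-133-z: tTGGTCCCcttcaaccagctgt
miR-1175-y: tGAGATTCaactcctccaactgc
miR-755-y: tGAGATTCaactcctacaactgt
miR-9-y: aTAAAGCTaggttaccaaagg
miR-965-x: gGGCAAACtgtactttct
miR-1643-x: aTCCTCACtgggggctct

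The third set holds miRNAs that had made most of their change by CL on the log2 scale, or whose mean level in CL lay beyond those of both ends. Predicted miRNAs are given letters in place of the authors' identifiers, and miRNAs A and B belong with the first set.
miR-124-y: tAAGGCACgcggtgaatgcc
miR-2001-x: tTGTGACCgttactatgggcatt
miR-278-z: tCGGTGGGattttcgttcgg
miR-12-x: tGAGTATTacatcaggtactga
predicted miRNA C: aAGTACTCgcagtatatttggc
predicted miRNA D: tGTAGCTTtctttgctctatac
miR-100-x: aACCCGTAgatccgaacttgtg
miR-99-x: aACCCGTAgatccgaacttg
miR-125-x: tCCCTGAGaccataacttgtga
miR-1990-x: aGTAAGTTgatggggtcccagg
miR-13-y: tATCACAGcctcttggatgagc
predicted miRNA E: gATCGGGCtttgcgtaggaagca
predicted miRNA A: aGACTGTTtatcgatctggtgt
predicted miRNA B: tCGGATGAgtcgtgggcagtagtc

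The change over the whole span reached 108 of the 214 miRNAs that passed the filter on low counts, or 50.5% of those tested, at a Benjamini-Hochberg adjusted p under 0.05 from edgeR's quasi-likelihood test and a fold change over 2. In PL, 61 miRNAs were higher (28.5% of those tested) and 47 were lower (22.0%). Of the 61, 14 had no larval count and passed the filter on low counts through PL alone, which fixed their direction. At an unadjusted p under 0.05, 130 of the 214 passed (60.7%). The fitted change was over 4-fold in 70 of the 108 and over 16-fold in 40, and 25 of the 40 had no count at one end of the span, where the fitted value is set in part by a prior count. Among the called miRNAs with counts at both ends, 45 were over 4-fold and 15 over 16-fold. The libraries of the 2 stages did not overlap in 104 of the 108, against 134 of all 214 tested (62.6%). The 108 references held 103 distinct sequences. Over all 214 the median log2 fold change was 0.055, so that the TMM scaling placed nearly as many miRNAs above as below no change. When libraries were scaled by their total miRNA counts instead, the median moved to 0.63, with 81 miRNAs higher and 31 lower, so that 72.3% of the calls were higher in place of 56.5%. The counts of each reference are a share of the miRNA tags in whole animals or an organ, and fewer cells of a type cannot be told apart from less RNA per cell.

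Each called miRNA was then placed by the share of its net change, on the log2 scale, that it had reached in CL. A share from 25% to 75% was termed gradual, under 25% down to -25% one step after competence, and over 75% up to 25 percentage points beyond the net change one step before competence. A share outside these limits meant that CL lay well beyond one of the ends, and it was termed a detour. By this measure 28 of the 108 miRNAs moved gradually, 47 in one step after competence, 19 in one step before competence and 14 with a detour. The step after competence held 26 miRNAs higher and 21 lower in PL, and 14 of the 26 had no larval count and belong there by construction. The gradual class held 11 higher and 17 lower, the step before competence 12 higher and 7 lower, and the detour 12 higher and 2 lower. These numbers depend on the scale of the share: on the linear scale, 65 of the 108 stayed in their class, with 39 higher and 10 lower in the step after competence, 12 and 14 in the gradual class, 4 and 18 in the step before competence and 6 and 5 in the detour. The shares are a description and were not tested, since the Pre-CL libraries enter both parts of each share.

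The single steps had fewer calls than the whole span. Between Pre-CL and CL 42 miRNAs were called (19.6% of the 214), 22 higher (10.3%) and 20 lower (9.35%), and between CL and PL 79 were called (36.9%), 48 higher (22.4%) and 31 lower (14.5%). At an adjusted p under 0.05 without the limit on the fold change, the first step had 50 miRNAs (23.4%) and the second 95 (44.4%). By this looser rule, all 47 miRNAs of the step after competence passed in the second step. Of the 19 miRNAs of the step before competence, 16 passed in the first step and 2 in the second. Among the 28 gradual miRNAs, 6 passed in both steps and 7 in neither, so that for these 7 only the whole span was resolved. The 21 miRNAs nearest to a limit of the classes, within 5 percentage points, included miR-133-y at 25.3% inside the gradual class and miR-190-x at 24.5% outside it. At the other limits miR-100-x stood at -25.8% as a detour and miR-79-y at -23.3% as a step after competence, and miR-996-y at 76.6% as a step before competence and miR-7911-x at 73.3% as gradual.

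**Figure D1:**
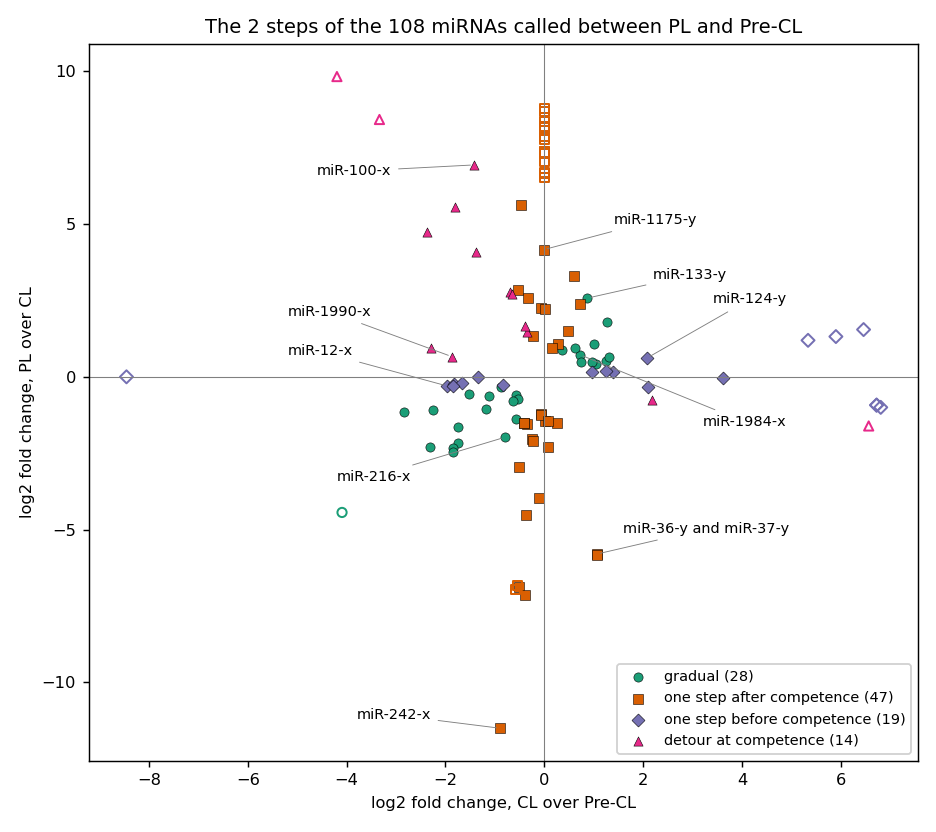
Log2 fold change of each of the 108 called miRNAs from Pre-CL to CL (horizontal axis) and from CL to PL (vertical axis), with the class given by colour and shape and open symbols for miRNAs without a count in the 3 libraries of at least one stage, whose fitted values are set in part by a prior count. The 47 miRNAs of the step after competence lie along the vertical axis, and miR-242-x is the lowest point.

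As a share of all reference counts, the 47 miRNAs lower in PL took 43.3% to 48.8% of the counts of a Pre-CL library and 10.5% to 11.7% of a PL library. Such shares scale each library to its total counts, so that a fall of abundant miRNAs by itself raises the shares of all others. The 61 higher ones went from 6.04% to 9.26% up to 31.3% to 32.6%. Most of the loss lay in the 21 miRNAs that fell in one step after competence, with 37.0% to 39.9% in Pre-CL, 28.3% to 28.8% in CL and 6.8% to 8.36% in PL. Most of the gain lay in the 11 gradual miRNAs, with 3.79% to 5.74% in Pre-CL, 7.82% to 8.92% in CL and 18.6% to 20.2% in PL, and in the 26 of the step after competence, with 2.15% to 3.33%, 2.98% to 3.33% and 10.7% to 11.8%. In each of these 5 shares the libraries of PL lay apart from those of Pre-CL. This separation follows from the selection, since the miRNAs summed were called between these same libraries. The 12 detours to a higher level stayed under 1% in every library, from 0.0806% to 0.165% in Pre-CL to 0.825% to 0.956% in PL.

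**Figure D2:**
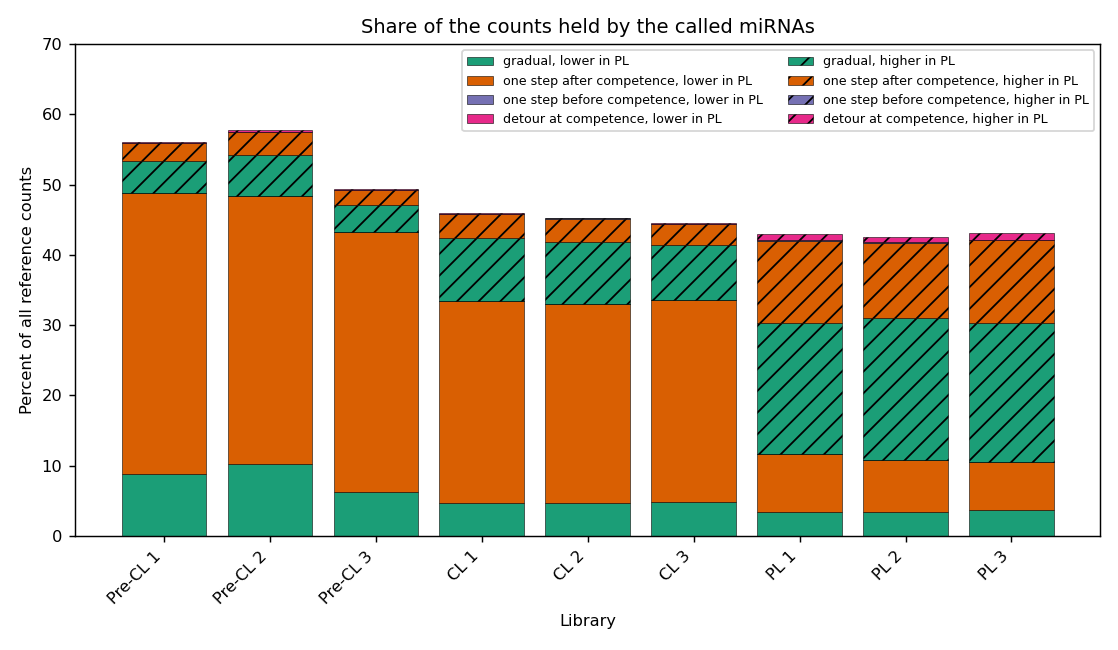
Stacked bars of the percent of all reference counts in each of the 9 libraries that fell on the called miRNAs, by class (colour) and direction (hatched where higher in PL). The plain orange part, miRNAs lower after one step past competence, covers 37.0% to 39.9% of the counts in Pre-CL and 6.8% to 8.36% in PL.

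The gradual class held 11 miRNAs that rose over the span, and in 7 of the 11 every CL library lay between those of Pre-CL and PL without overlap. The most abundant was miR-1984-x, of a family described from lophotrochozoans, the animals that include molluscs and annelids, with 16999.6, 20173 and 16037 CPM in Pre-CL, 25492, 33077 and 28723 CPM in CL and 47134, 41400.0 and 55917 CPM in PL. Its libraries formed 3 separate ranges in the order of the stages, and nearly equal parts of the rise lay in each step (log2 fold change 1.44, standard error (SE) 0.19, adjusted p = 3.3e-04 over the span; 0.71 with adjusted p = 0.020 and 0.73 with adjusted p = 0.011 for the steps). The other gradual rise that passed in both steps was that of miR-278-y, whose Drosophila relative acts in the fat body in energy balance, with 1254, 1391 and 1035 CPM in Pre-CL, 2512, 3773 and 2633 CPM in CL and 8838, 9096 and 13175 CPM in PL. Its 3 ranges were also separate, with a net log2 fold change of 3.08, SE 0.26, adjusted p = 3.1e-05, and 41.5% of the change had been reached in CL. The muscle miRNA miR-133-y had 66.8, 65.3 and 40.7 CPM in Pre-CL, 69.3, 156 and 91.6 CPM in CL and 440.0, 618 and 832 CPM in PL. All PL libraries were far above both larval stages (log2 fold change 3.45, SE 0.41, adjusted p = 2.2e-04), and the first step alone did not pass (0.87, adjusted p = 0.14).

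Another muscle miRNA, miR-1-z, had 13746, 12529 and 19093 CPM in Pre-CL, 29675, 37941 and 26393 CPM in CL and 41826, 36243 and 47458 CPM in PL. Its CL libraries were above every Pre-CL library and overlapped those of PL, and 71.6% of its net change lay in the first step (log2 fold change 1.47, SE 0.22, adjusted p = 7.8e-04). The related miR-206-y, the vertebrate name for a miRNA with the seed of miR-1, had 61.5, 48.1 and 93.0 CPM in Pre-CL, 152, 205 and 124.5 CPM in CL and 232, 202 and 259 CPM in PL. It moved in the same way (log2 fold change 1.78, SE 0.32, adjusted p = 0.0015), and its reference lies within 2 mismatches of that of miR-1-z, so that the allotment of tags between them is uncertain. Levels of miR-67-y, a conserved invertebrate miRNA, were 13814, 17575 and 9568 CPM in Pre-CL, 23003, 22812 and 22380.3 CPM in CL and 28697, 31269.7 and 36049 CPM in PL. The 3 ranges did not overlap, with the CL libraries nearly equal to each other (log2 fold change 1.23, SE 0.22, adjusted p = 0.0017). Of the remaining gradual rises, miR-234-y (log2 fold change 2.09), miR-277-y (1.57) and let-7-y (1.96) had separate ranges in the 3 stages at levels of at most 44.6 CPM, and in miR-981-y (1.45) and miR-87-y (1.23) the CL libraries overlapped one of the ends, and miR-87-y was not called without Pre-CL 3 (0.96).

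Among the 17 gradual falls, the members of one seed family moved together. For miR-216-x, known from the vertebrate pancreas and present in protostomes, the libraries held 49024, 46975 and 51833 CPM in Pre-CL, 24828, 32319 and 27914 CPM in CL and 6619.5, 5834 and 9128 CPM in PL. The 3 stages were separate, and the larger part of the fall came after competence (log2 fold change -2.78, SE 0.21, adjusted p = 2.1e-05; -0.80 and -1.98 for the steps, adjusted p = 0.019 and 1.2e-04). The longer reference miR-283-x, which contains that of miR-216-x, had 655, 637 and 308 CPM in Pre-CL, 164, 166 and 144 CPM in CL and 31.2, 32.8 and 42.0 CPM in PL. Each step passed here too, and the fall was larger (log2 fold change -3.91, SE 0.34, adjusted p = 3.6e-05). The third member, miR-747-x, had 8.42, 6.91 and 11.6 CPM in Pre-CL, 2.51, 1.89 and 1.13 CPM in CL and 0.400, 1.06 and 1.11 CPM in PL. It was near the floor of 3 counts in PL, with a net log2 fold change of -3.32, SE 0.50, adjusted p = 7.0e-04, and its first step alone passed (-2.25, adjusted p = 0.0098). How the authors allotted a tag that fits several of these references was not stated in the sources used here.

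The miR-2 family of protostomes, which in flies represses cell death genes, was represented by miR-2-y with 47285, 49428 and 25528 CPM in Pre-CL, 19014, 23386 and 24550.1 CPM in CL and 16729, 15464 and 20982 CPM in PL. Pre-CL 1 and Pre-CL 2 were high and Pre-CL 3 was close to CL, whose range overlapped that of PL. The net change (log2 fold change -1.20, SE 0.27, adjusted p = 0.0040) was no longer called without Pre-CL 2 (-0.85), under limma (-0.94) or scaled by total counts (-0.66). In miR-34-x, whose fly relative is active in ageing neurons, Pre-CL 3 at 1178 CPM lay below PL 3 at 1289 CPM, and the call (log2 fold change -1.16, SE 0.36, adjusted p = 0.021) was lost in 8 of 20 alternatives, with -0.57 without Pre-CL 2, -1.0 without PL 1 and -0.99 without PL 2. miR-71-y, less abundant than miR-71-x, had 6.17, 5.63 and 7.40 CPM in Pre-CL, 3.11, 3.22 and 6.54 CPM in CL and 1.80, 0.931 and 2.22 CPM in PL, and its PL libraries were all below those of CL and Pre-CL (log2 fold change -1.95, SE 0.47, adjusted p = 0.0058). Predicted miRNA A had 36, 41 and 48 counts in Pre-CL, 0, 3 and 4 in CL and none in PL, which made it at least 16.6-fold lower in PL against a floor of 3 counts per library. Predicted miRNA B had 14, 19 and 33 counts in Pre-CL, 4, 5 and 5 in CL and 0, 0 and 3 in PL. Both were low in CL as well, and 8 of the 17 gradual falls were predicted miRNAs.

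In 3 further gradual falls, Pre-CL 3 stood far above every other library. The references of miR-2478-y, miR-3968-y and miR-7911-x end in CCA, the end that mature tRNAs carry. For miR-2478-y the levels were 744, 419 and 5044 CPM in Pre-CL, 434, 731 and 687 CPM in CL and 239.8, 177 and 183 CPM in PL. The other Pre-CL libraries were within or near the range of CL, and the reference lies within that of miR-3968-y, which had 101 CPM in Pre-CL 3 against 20.8 and 11.4 CPM in the other libraries of Pre-CL. Without Pre-CL 3 the net log2 fold changes of miR-2478-y and miR-3968-y went from -3.37 and -4.18 to -1.56 and -2.73 and were still called, and that of miR-7911-x went from -2.08 to -0.88 and was not (adjusted p = 0.19); it was also not called without PL 2 (-1.67), PL 3 (-2.04), CL 1 or CL 2 (-2.03 each). Over all references, 4 of the 47 lower miRNAs, 0 of the 61 higher ones and 11 of the 214 tested end in CCA. The tRNA share of the clean reads was 0.166% ± 0.0134 (SD, n = 3) in Pre-CL and 0.874% ± 0.0977 (SD, n = 3) in PL, and its part in these levels was not tested.

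The largest net change by the fitted values was the fall of miR-242-x. Its libraries held 143227, 127235 and 133813 CPM in Pre-CL, 60954, 90887 and 64759 CPM in CL and 9.21, 10.1 and 55.1 CPM in PL. In Pre-CL it was among the most abundant miRNAs, with 9.81% to 12.8% of all reference counts, against 5.6% to 7.17% in CL and 0.00122% to 0.00632% in PL. The CL libraries were below all of Pre-CL, yet on the log2 scale only 7.26% of the fall had been reached there (log2 fold change -12.40, SE 0.94, adjusted p = 2.1e-05). The first step was a log2 fold change of -0.90 (adjusted p = 0.31) and the second of -11.50 (adjusted p = 3.0e-05). The class of such miRNAs depends on the scale. By linear CPM, miR-242-x had covered 46.4% of its fall in CL, and 8 of the 21 falls after competence were gradual and 10 stayed in their class.

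The sensory organ miRNAs of one seed fell mainly at the same step on the log2 scale. For miR-263-x, whose fly relative protects sensory bristle cells, the libraries held 66024, 58105 and 72696 CPM in Pre-CL, 43565, 43283 and 51984 CPM in CL and 433, 308 and 449 CPM in PL. Its CL libraries were below those of Pre-CL without overlap (net log2 fold change -7.37, SE 0.25, adjusted p = 7.5e-08). On the log2 scale 6.83% of the fall had been reached in CL, and by linear CPM 29.6%, which would place it as gradual. The identical reference miR-183-x, named after a vertebrate miRNA of sensory hair cells and photoreceptors, moved by -7.55 and is no second measurement. The rarer miR-228-x, of the same seed, had 19, 14 and 28 counts in Pre-CL, 17, 13 and 14 in CL and none in PL, at least 8.33-fold lower in PL against 3 counts per library. By contrast miR-96-x, clustered with miR-183 in vertebrates, had 23869.5, 18904 and 38580.1 CPM in Pre-CL, 26887, 37252 and 33181 CPM in CL and 12122, 9447 and 12874 CPM in PL. All of its PL libraries were below the larval ones, at a far smaller change (log2 fold change -1.24, SE 0.28, adjusted p = 0.0041), and the call was lost without Pre-CL 3 (-0.91), under limma (-0.97) and with total miRNA counts (-0.60) or clean reads (-1.0) as library size.

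Other falls of this class came from abundant miRNAs of varied roles. The deeply conserved protostome miRNA miR-71-x, which extends life in Caenorhabditis elegans, had 144645, 111011 and 163954 CPM in Pre-CL, 99156, 117069 and 111812 CPM in CL and 42948, 33269.8 and 36633 CPM in PL. Pre-CL and CL overlapped and all PL libraries were below them (log2 fold change -1.89, SE 0.19, adjusted p = 1.0e-04). In miR-375-y, a miRNA of neuroendocrine and gut cells in vertebrates, the levels were 14020.1, 9648 and 20585 CPM in Pre-CL, 11265, 18627 and 14685 CPM in CL and 5632, 4255 and 6558 CPM in PL. The CL libraries lay inside the range of Pre-CL (log2 fold change -1.43, SE 0.31, adjusted p = 0.0039). This call was lost with total miRNA counts as library size (-0.79). The identical references miR-31-x and miR-72-x had log2 fold changes of -1.30 and -1.31. Levels of miR-31-x were 2426, 2695 and 1624 CPM in Pre-CL, 2016, 2502 and 1909 CPM in CL and 727, 903 and 1112 CPM in PL. Both calls were lost without Pre-CL 2 (-0.96 and -0.97) and with total miRNA counts as library size (-0.75 and -0.76). The identical references miR-36-y and miR-37-y carry the names of embryonic miRNAs of Caenorhabditis elegans, and miR-36-y had 256, 271 and 984 CPM in Pre-CL, 1006, 1154 and 990.1 CPM in CL and 17.2, 15.7 and 23.4 CPM in PL. Pre-CL 3 was at the level of CL and the other Pre-CL libraries were well below it, so that the first step did not pass (1.06, adjusted p = 0.17) while the PL libraries were far below all others (log2 fold change -4.74, SE 0.57, adjusted p = 2.3e-04; -3.82 without Pre-CL 3).

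The rises after competence included miR-315-x, an activator of Wnt signalling in Drosophila, with 26661, 31171 and 28332 CPM in Pre-CL, 31837, 39286 and 32508 CPM in CL and 76820.1, 56123 and 83615 CPM in PL. The CL libraries were slightly above those of Pre-CL without overlap, and 20% of the rise lay in this step (log2 fold change 1.33, SE 0.19, adjusted p = 5.6e-04). A sharper change was that of miR-1175-y, of a family of protostomes, with 729, 532 and 248 CPM in Pre-CL, 335, 636 and 522 CPM in CL and 6519.8, 8831 and 11388 CPM in PL. Pre-CL and CL shared one range and PL was separate from both (log2 fold change 4.15, SE 0.46, adjusted p = 1.6e-04). The muscle miRNA miR-133-z had 539, 443 and 243 CPM in Pre-CL, 436, 990.3 and 588 CPM in CL and 2278, 3564 and 4570.5 CPM in PL, and its CL libraries overlapped Pre-CL (log2 fold change 3.09, SE 0.44, adjusted p = 5.4e-04). It fell just outside the gradual class at 23.2% while miR-133-y, within 2 mismatches of it, fell just inside, so that their classes do not separate them. In miR-190-x, from the list of neural miRNAs, the libraries held 163, 251 and 134 CPM in Pre-CL, 219, 294 and 254 CPM in CL and 619.9, 689 and 847 CPM in PL, with PL apart from both larval stages (log2 fold change 1.98, SE 0.28, adjusted p = 5.6e-04).

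For miR-317-y, which lies in one cluster with miR-277 and miR-34 in flies, the levels were 131, 191 and 46.7 CPM in Pre-CL, 98.9, 134 and 120.4 CPM in CL and 421, 552 and 718 CPM in PL. The larval ranges overlapped, with Pre-CL 3 the lowest of all (log2 fold change 2.2, SE 0.47, adjusted p = 0.0035). In miR-9-y, from a family of neural precursors, they were 25.1, 31.0 and 7.86 CPM in Pre-CL, 14.6, 24.2 and 12.4 CPM in CL and 83.9, 88.3 and 136 CPM in PL. Every PL library was above every larval one (log2 fold change 2.26, SE 0.52, adjusted p = 0.0046), and the nested reference miR-79-y rose in the same way (2.32). The rises of miR-1993-y (log2 fold change 1.1, SE 0.33, adjusted p = 0.018) and miR-8-x (log2 fold change 1.12, SE 0.33, adjusted p = 0.017) were close to the limit of 2-fold and were lost without PL 3 (0.94 and 0.89) or Pre-CL 3 (0.85 and 0.89). For miR-755-y, with the seed of miR-1175-y, there were 2, 4 and 0 counts in Pre-CL, 0, 2 and 2 in CL and 51, 124 and 88 in PL (log2 fold change 5.14, SE 0.85, adjusted p = 0.0011), so that it was close to 0 counts until PL.

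No count in any larval library was found for 14 of the 61 higher miRNAs, and all 14 therefore belong to the step after competence by construction. With counts only in PL, these 14 passed the filter on low counts through PL alone, which fixed their direction. They had 10 to 69 counts per PL library and were at least 3.51-fold to 16.6-fold higher in PL than in Pre-CL against a floor of 3 counts per library. Of the 14 references 9 are 18 nt long, among them miR-965-x with 48, 69 and 64 counts and miR-1643-x with 57, 45 and 63 counts. Longer ones were miR-200-x, with the seed of the epithelial miRNA miR-8-x and 14, 31 and 24 counts, and miR-307-y, with the seed of miR-67-y and 11, 27 and 31 counts. As lower bounds, miR-200-x was at least 6.17-fold and miR-307-y at least 6.16-fold higher in PL. Of all 61 higher miRNAs 18.0% were 18 nt long, against 4.26% of the lower ones, 12.6% of those tested and 40.6% of all references. The 9 references of 18 nt without a larval count are part of the 18.0%. The share of reads under 18 nt, given above, was higher in PL than in 2 of the 3 Pre-CL libraries, and its part in the 18-nt references was not tested. With only references of at least 20 nt, an alternative chosen after seeing the data, 96 miRNAs were called, 52 higher and 44 lower.

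The class of one step before competence was led by a neural miRNA. Levels of miR-124-y, the most conserved miRNA of neurons, were 48.3, 43.9 and 46.3 CPM in Pre-CL, 173, 249.7 and 159.9 CPM in CL and 277, 288 and 327 CPM in PL. Its 3 stages were separate, the first step passed (2.07, standard error 0.24, adjusted p = 0.0027) and the second did not (0.61, adjusted p = 0.059), for a net log2 fold change of 2.69 (adjusted p = 5.1e-05). At 77.2% it stood close to the gradual class. For miR-2001-x, known from lophotrochozoans and echinoderms, the libraries held 97.6, 100.0 and 96.9 CPM in Pre-CL, 193, 222 and 161 CPM in CL and 212, 192 and 236 CPM in PL. CL and PL overlapped and both were above Pre-CL (log2 fold change 1.12, SE 0.21, adjusted p = 0.0021). The shorter relatives of miR-278-y followed this pattern as well, and miR-278-z had 26.9, 28 and 56.7 CPM in Pre-CL, 86.6, 117 and 88.9 CPM in CL and 106, 93.6 and 126 CPM in PL. CL had reached the range of PL (log2 fold change 1.55, SE 0.35, adjusted p = 0.0040), while miR-278-y itself rose again after competence, and miR-278-x, which contains miR-278-z, went with the latter (1.44).

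Of the 12 rises of this class, 6 had no count in Pre-CL. Predicted miRNA C had 9, 15 and 7 counts in CL and 28, 43 and 35 in PL, at least 9.71-fold higher in PL than in Pre-CL against 3 counts per library. In miR-3327-y there were 12, 6 and 4 counts in CL and 19, 21 and 20 in PL, at least 5.62-fold higher. Their levels in PL were still above those in CL, and where Pre-CL has no count the share reached in CL is set in part by a prior count. Among the 7 falls, miR-12-x, from a cluster with miR-283 in flies, had 109.8, 164 and 27.8 CPM in Pre-CL, 23.1, 33.9 and 20.1 CPM in CL and 15.6, 19.7 and 27.2 CPM in PL. Pre-CL 1 and Pre-CL 2 were high, Pre-CL 3 was at the level of CL, and CL overlapped PL (log2 fold change -2.27, SE 0.59, adjusted p = 0.0087). Under limma miR-12-x was not called (-1.69). The nested miR-12-z had a smaller change (log2 fold change -1.35, SE 0.46, adjusted p = 0.032), and its call was lost in 12 of 19 alternatives, with -0.82 without Pre-CL 2 and -1.07 without PL 1. In miR-5119-y, with 22.3, 58.0 and 42.1 CPM in Pre-CL, 6.36, 16.8 and 11.3 CPM in CL and 13.6, 9.31 and 6.65 CPM in PL, every Pre-CL library was above every other (log2 fold change -2.05, SE 0.51, adjusted p = 0.0068). Predicted miRNA D had 44, 70 and 15 counts in Pre-CL and none in CL or PL, at least 15.6-fold lower in PL. It passed the filter on low counts through Pre-CL alone.

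In 10 of the 12 detours to a higher level the fitted value of CL was below that of Pre-CL, and in 3 of the 10 this first step passed (miR-100-x, miR-99-x and predicted miRNA E). The clearest was miR-100-x, of the ancient miR-100 family clustered with let-7 in flies, with 54.4, 70.1 and 76.8 CPM in Pre-CL, 40.7, 21.2 and 12.9 CPM in CL and 2876, 2648 and 3669.8 CPM in PL. Its CL libraries were all below those of Pre-CL and its PL libraries far above both (log2 fold change 5.51, SE 0.45, adjusted p = 3.1e-05), and both steps passed, the first at -1.42 (adjusted p = 0.026) and the second at 6.94 (adjusted p = 1.3e-05). The nested miR-99-x moved with it (3.75). The third miRNA of that cluster in flies, miR-125-x, had 33.1, 2.09 and 11.8 CPM in Pre-CL, 5.03, 2.27 and 10.8 CPM in CL and 84.5, 94.5 and 128 CPM in PL. Pre-CL 1 was high and the larval stages overlapped, while all PL libraries were above them (log2 fold change 2.71, SE 0.88, adjusted p = 0.025), and the call was lost without PL 3 (2.48) or Pre-CL 3 (2.52). For miR-281-x and miR-281-y the first step did not pass (-0.39 and -0.35, adjusted p = 0.31 and 0.47), so that their detours were not resolved from a single step after competence, and the net call of miR-281-y (1.12) was lost without PL 3 (0.91) or Pre-CL 3 (0.89).

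The same held for miR-1175-x, with 93.9, 109 and 46.3 CPM in Pre-CL, 53.8, 52.8 and 46.9 CPM in CL and 385, 277 and 392 CPM in PL, and for miR-1992-y, described from lophotrochozoans, with 81.9, 127 and 29.6 CPM in Pre-CL, 55.2, 46.3 and 49.6 CPM in CL and 287, 328 and 370.3 CPM in PL. In both, CL lay inside the range of Pre-CL and PL was separate (2.08 and 2.04 over the span, adjusted p = 1.0e-03 and 0.0040). Predicted miRNA E had 2, 2 and 2 counts in Pre-CL, none in CL and 118, 97 and 148 in PL (log2 fold change 5.63, SE 0.50, adjusted p = 1.8e-04), and its first step passed by a fitted value against no count. The 2 detours to a lower level were deepest in CL. In miR-1990-x, another of the lophotrochozoan list, the libraries held 143, 175 and 173 CPM in Pre-CL, 47.3, 48.0 and 38.3 CPM in CL and 68.7, 59.7 and 83.4 CPM in PL. The 3 stages were separate, with CL the lowest, and both steps passed (-1.87 and 0.66, adjusted p = 0.0027 and 0.049), for a net log2 fold change of -1.21, SE 0.24, adjusted p = 0.0024. Its call was lost without Pre-CL 2 (-0.97), under limma (-0.99) and with total miRNA counts as library size (-0.63). The other was miR-13-y, which shares its seed with miR-2-y, with 22.8, 21.2 and 9.25 CPM in Pre-CL, 3.7, 3.59 and 3.61 CPM in CL and 7.01, 8.37 and 5.54 CPM in PL. CL was below every other library, Pre-CL 3 was close to PL, and the net call (log2 fold change -1.35, SE 0.39, adjusted p = 0.016) was lost in 8 of 19 alternatives, with -1.13 without Pre-CL 1, -1.01 without Pre-CL 2, -1.30 without PL 1 and -1.23 without PL 3.

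**Figure D3:**
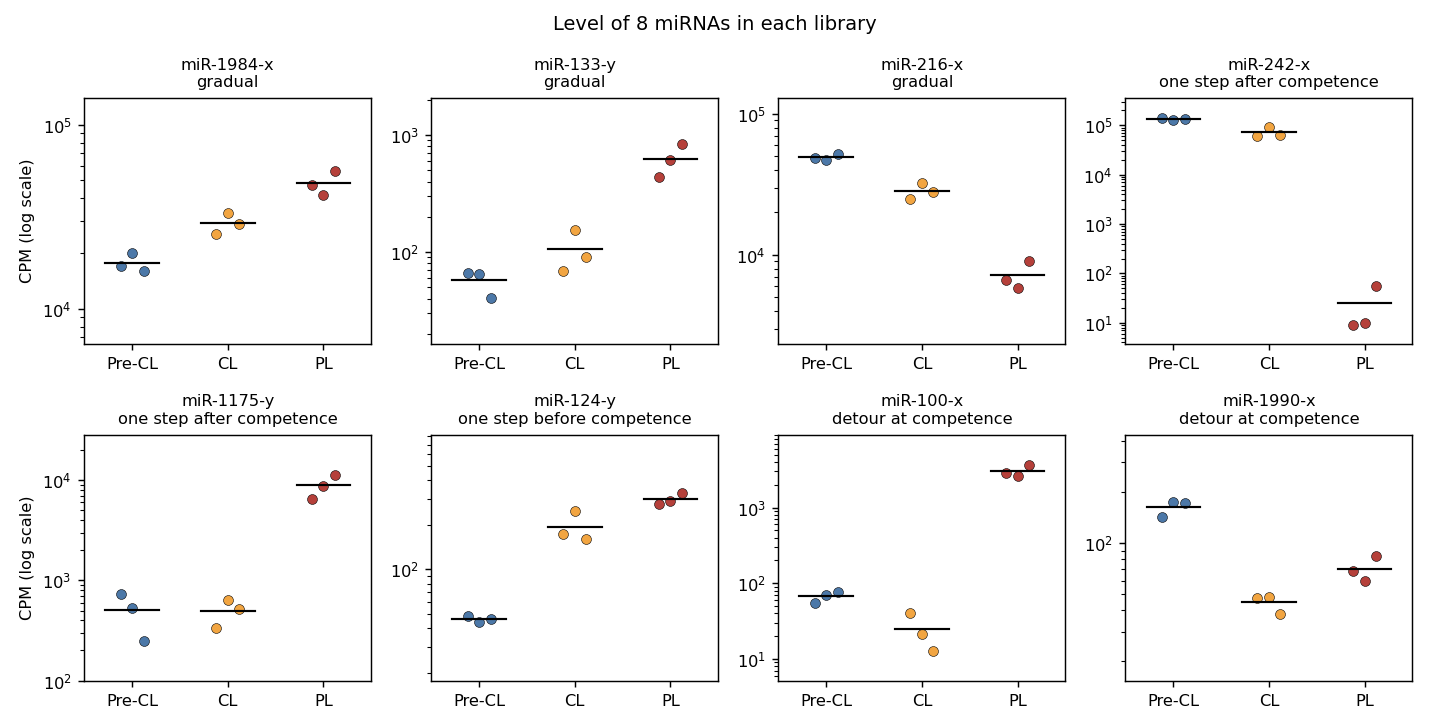
CPM of 8 miRNAs, one panel each with its class, on logarithmic vertical axes that differ between panels. Points are the 3 libraries of each stage and bars their means. The CL libraries lie between the ends in miR-1984-x, miR-133-y and miR-216-x, with the larval stages in miR-1175-y, near PL in miR-124-y, and below both ends in miR-100-x and miR-1990-x.

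The called miRNAs were also counted in lists of families grouped by their known roles in other animals. Of 5 muscle references tested (miR-1, miR-133 and miR-206), 4 were higher and 1 was not called, with a median log2 fold change of 1.78. Over all 214 the median was 0.055 and 28.5% were called higher. The muscle reference not called was the abundant miR-1-y (0.15), which contains miR-1-z. With identical or nested references taken once, 3 of 4 muscle references were higher, with a median of 2.56. Of 6 timing references, 4 were higher (miR-100-x, miR-99-x, miR-125-x and let-7-y) and 2 not called, with a median of 2.33. With identical or nested references taken once, 4 of 5 were higher, with a median of 2.06. The summed level of the list overlapped between the stages (41657 to 102496 CPM in Pre-CL and 61635 to 84036 CPM in PL). The uncalled miR-10-x had a log2 fold change of -0.36 (adjusted p = 0.37). The abundant let-7-x was not among them, at 9406, 8135 and 21312 CPM in Pre-CL, 37713, 42072 and 37368 CPM in CL and 26243, 23048 and 27965 CPM in PL. It was highest in CL, and its net log2 fold change of 0.99 (adjusted p = 0.030) missed the limit of 2-fold, and the list held 5 higher members with DESeq2, clean reads or total counts in place of TMM and 3 without PL 3. Of 12 neural references, 4 were higher (miR-124-y, miR-190-x, miR-9-y and miR-79-y) and 8 were not called, with a median of 0.68. Without Pre-CL 2, 8 of the 12 were higher, with a median of 1.08, and without Pre-CL 3 there were 4, with a median of 0.41.

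Of 5 sensory organ references, 4 were lower, against 22.0% of all 214, with a median of -7.37, or -3.06 with miR-228-x at its bound. The fifth, miR-182-x, had 62.5, 73.3 and 12.7 CPM in Pre-CL, 44.7, 10.4 and 11.1 CPM in CL and 116, 107 and 137 CPM in PL and was not called (log2 fold change 1.28, SE 0.71, adjusted p = 0.16), although its PL libraries were above those of Pre-CL. The sensory list counts the identical miR-263-x and miR-183-x separately. With identical or nested references taken once, 3 of 4 sensory references were lower, with a median of -4.19. Under limma 3 of 5 were lower, with a median of -1.67. Of 13 epithelium and gut references, 7 were lower (miR-216-x, miR-283-x, miR-375-y, miR-31-x, miR-72-x, miR-12-x and miR-12-z) and 2 higher (miR-8-x and miR-200-x), with a median of -1.30. With identical or nested references taken once, 4 of 10 were lower and 2 higher, with a median of -0.071, and without Pre-CL 2, 4 of the 13 were lower, with a median of -0.82. The 2 higher ones are rare forms, and the abundant miR-8-y, with 15328, 18517 and 9366 CPM in Pre-CL, 9388, 10689 and 9289 CPM in CL and 17558, 14386 and 19094 CPM in PL, was not called (0.24, adjusted p = 0.45). Of 11 references of the miR-71/miR-2 cluster and growth families, 6 were lower and 2 higher, with a median of -1.16, and without Pre-CL 2 there were 3 lower, with a median of -0.75. The list named lophotrochozoan also holds families of other animals, among them miR-1175 of protostomes and miR-242, which the authors cite from Caenorhabditis elegans. Its 16 references split into 6 higher, 2 lower and 8 not called, with a median of 0.61. The 6 include miR-1175-x and miR-1175-y, and the 2 include miR-242-x. With the total counts as library size, 3 of the 13 epithelium and gut references, 3 of the 11 of the miR-71/miR-2 list and 3 of the 5 sensory ones were lower, and 7 of the 12 neural ones were higher.

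**Figure D4:**
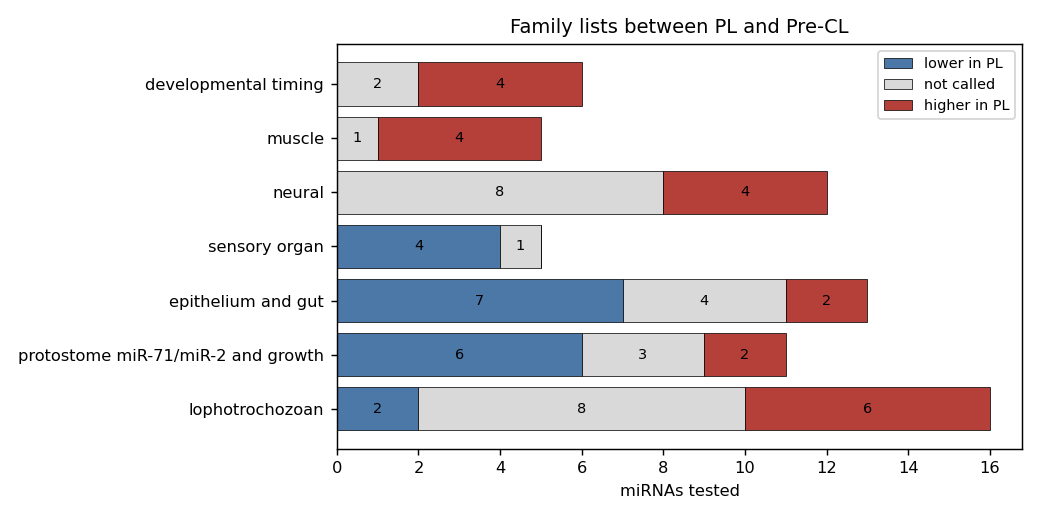
Number of tested miRNAs in each of 7 family lists that were called lower in PL (blue), not called (grey) or called higher (red) against Pre-CL. The muscle and timing lists hold 4 higher members each, and the sensory organ list 4 lower ones.

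Called miRNAs with a common seed mostly had one direction. There were 17 seeds with 2 or more called references, covering 37 references, and in 16 of the 17 all members had one direction. The exception was the seed of miR-149-y, higher in PL, and of a predicted miRNA that was lower. The members of a seed also shared the class of the split in 12 of the 17. Different classes were found for miR-133-y and miR-133-z, miR-67-y and miR-307-y, miR-2-y and miR-13-y, the 3 miR-278 references and the pair with miR-149-y. In 4 of the 17 the members had a single sequence, and others lie within each other or within 2 mismatches of each other. The authors matched tags with up to 2 mismatches, so that one direction was favoured in advance and these counts are not independent. Of all 214 tested, 28.5% were called higher and 22.0% lower, and whether seed groups differ from these shares was not tested. Predicted miRNAs made up 42.6% of the lower miRNAs and 16.4% of the higher ones, against 23.8% of those tested. A first base T, which Argonaute proteins of many animals prefer, was found in 52.5% of the higher, 57.4% of the lower and 59.3% of the tested references.

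The proportions of nested references, and of x and y references of one number, differed between the stages in some cases. For each 100 counts of the longer miR-1-y, the shorter miR-1-z had 20.7, 24.6 and 29.6 counts in Pre-CL, 40.9, 46.3 and 38.9 in CL, and 56.6, 62.6 and 68.2 in PL. These ratios, which do not depend on the scaling between libraries, formed 3 separate ranges (exact two-sided permutation test of PL against Pre-CL, p = 0.1, the smallest that 3 libraries against 3 allow; adjusted p = 0.150 over 21 ratios). The longer miR-1-y itself was not called. The ratios of PL and Pre-CL did not overlap in 6 of 8 nested pairs, and miR-1-z was the only one of the 8 in which CL lay between them. Only nested pairs with at least 1 called member were taken, so that differences between the stages were favoured in advance. Of all 214 miRNAs tested, the levels of 62.6% did not overlap. References of one number with the suffixes x and y and different seeds may be the arms of one hairpin, which the sources used here do not state. Of 14 such pairs tested, both members were called in 4 pairs, each time in one direction, 1 member in 7 pairs and none in 3. Among all 214 miRNAs tested 50.5% were called, and whether the pairs differ from this share was not tested. Per 100 counts of miR-8-y, miR-8-x had 0.244, 0.173 and 0.220 counts in Pre-CL and 0.306, 0.412 and 0.432 in PL. Per 100 counts of miR-92-y, miR-92-x had 0.319, 0.211 and 0.631 counts in Pre-CL and 0.0268, 0.0211 and 0.0254 in PL. The ratio of the miR-8 pair was thus higher in PL and that of the miR-92 pair lower, with no overlap of the 2 stages in either ratio, at exact two-sided permutation p = 0.1 each. Of the 13 ratios of x and y references, 8 did not overlap between PL and Pre-CL.

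**Figure D5:**
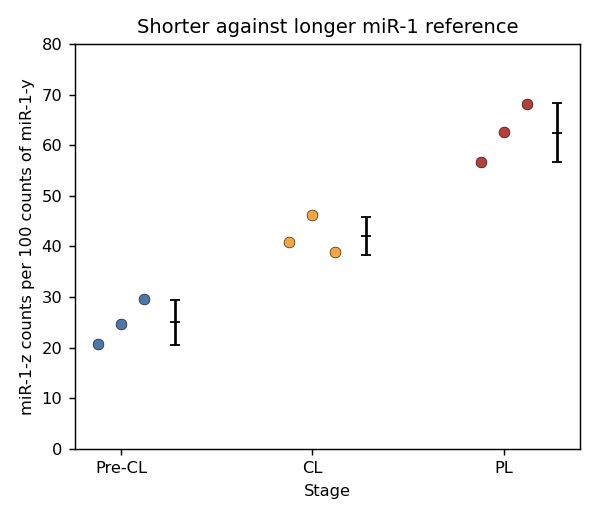
Counts of miR-1-z per 100 counts of miR-1-y in each library by stage, with mean and SD (n = 3) beside the points. The 3 stages do not overlap, from 20.7 in Pre-CL 1 to 68.2 in PL 3.

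The 3 tested and uncalled miRNAs with the highest mean level were as follows. The highest, miR-184-y, a miRNA of the cornea in vertebrates, had 139442, 89745 and 262499 CPM in Pre-CL, 169914, 233585 and 218432 CPM in CL and 109763, 109995 and 135230.0 CPM in PL. Pre-CL 3 was far above the other libraries of its stage and the ranges overlapped (log2 fold change -0.47, SE 0.35, adjusted p = 0.28). In miR-1-y the levels were 66340.1, 50884 and 64566 CPM in Pre-CL, 72588, 81972 and 67838 CPM in CL and 73912, 57876 and 69634 CPM in PL, with overlapping ranges (log2 fold change 0.15, SE 0.17, adjusted p = 0.50). For miR-279-y, a regulator of neurons in flies, they were 63494, 63560.2 and 82178 CPM in Pre-CL, 57217, 73579 and 61547 CPM in CL and 34439, 33276 and 45694 CPM in PL. All PL libraries were below those of Pre-CL, and the change passed the adjusted p but stayed under 2-fold (log2 fold change -0.88, SE 0.20, adjusted p = 0.0040).

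In the table of miRNA and target pairs that the authors kept for inverse correlation, each target has their mean FPKM of each stage, without values per library, and inverse directions follow from that selection. The examples below were chosen after their values were seen. The 29 predicted targets of miR-242-x include a copper chaperone like Atox1 (c138547_g1), with 98.9 FPKM in Pre-CL, 152 in CL and 219 in PL, and a myosin regulatory light chain (c110406_g1), with 57.5, 79.6 and 142 FPKM. Among the 300 pairs of miR-216-x was a legumain-like protease (c156875_g1), with 63.5, 149 and 417 FPKM. For the gradual rise of miR-1984-x, with 32 pairs, the axonemal protein like tetratricopeptide repeat protein 25 (c154964_g1) had 130.1, 32.0 and 14.6 FPKM. The 122 pairs of miR-124-y include an axonemal dynein light chain (c168915_g1), with 168.7, 38.2 and 15.7 FPKM. One of the 65 targets of miR-278-y, a peritrophin-1-like chitin-binding protein (c133938_g1), had 724, 77.9 and 5.98 FPKM. Predicted miRNA D, absent from the counts of CL and PL, was paired with paramyosin (c119060_g1), a muscle protein of invertebrates, at 92.8, 1049 and 919 FPKM. The stage means thus place the main change of paramyosin before competence and that of the legumain-like gene in both steps.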

How the data were processed

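Small RNA libraries of 3 stages, 3 of each, were compared, with groups and replicate numbers taken from the labels. The authors deposited raw tag counts for each miRNA reference and library, besides TPM values, treated as a score here, which were found to be scaled to known plus predicted miRNA tags with 0 written as 0.01 and were not used further. The authors also deposited a table of the read counts of each RNA class, and a table of miRNA and target pairs with their FPKM means of each stage, whose own comparison columns (fold changes, p-values and correlations) were not used. Before deposit, the authors had cleaned the reads, removed tags of other RNA classes by comparison with GenBank, Rfam and repeat annotation, matched the rest to miRBase and predicted further miRNAs with MIREAP. No genome was used here. No pair of libraries was near-identical in its counts.

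Counts of all 9 libraries were fitted by stage with edgeR 4.0.16 in R 4.3.3 (TMM scaling, filterByExpr, quasi-likelihood test). P-values were adjusted by Benjamini and Hochberg's method over the 214 references tested, and calls required an adjusted p under 0.05 and a fold change over 2. Standard errors (SE) were taken as the absolute log2 fold change divided by the root of F. Against a stage without counts, a lower bound was set with 3 counts per library. Intervals and floors cover counting error only. The labels call the replicates biological, and p-values measure the spread between these libraries. The fit was tested on simulated data with a common spread, in which every change was set midway at CL on the log2 scale. Of 52 changed miRNAs tested, 34 were recovered, all with the right sign, and there was 1 false call. Of the 34, 22 were placed as gradual, so that some changes set midway at CL fell outside the gradual class. Ratios were compared by exact permutation tests in Python 3.11.15 with scipy 1.17.1, numpy 2.4.6 and pandas 2.3.3, and figures were drawn with matplotlib 3.10.9.

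Named miRNAs were, for each class and direction, the 3 of highest mean CPM and the 2 of largest fold change with at least 10 counts in every library of one stage, every called member of the family lists, and the 3 most abundant that were not called. Others named were chosen after their values were seen. The members and lists were chosen with earlier results of these data known. Alternatives were DESeq2 1.42.0, limma 3.58.1 on log2 counts per 1000000 clean reads plus 1, 2 other library sizes, 2 other filters, the 6 libraries alone, a replicate block, nested references taken once, no fold limit, other limits and scales of the split, and each library left out.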

Additional observations from a re-analysis of the deposited data

How the results depend on the processing

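Of 1157 values of the 59 named miRNAs under the alternatives, 1092 kept their direction and side of the threshold, 59 were no longer called, 3 became called and 3 reversed, and 39 of the 59 miRNAs kept their result throughout. The reversals were miR-1-y with the stricter filter below (-0.12) and miR-184-y with total counts as library size (0.20) or without Pre-CL 3 (0.028; leave-one-out range -0.59 to 0.028), none of them called. With only miRNAs of a mean over 10 counts per 1000000 clean reads, 52 miRNAs were called, 22 higher (42.3%) and 30 lower, of which 14 were gradual, 21 one step after competence, 11 one step before and 6 detours, and the median over the 98 tested moved to -0.15. One step before competence held 12 with limma, 33 without a filter and 11 with the 6 libraries alone. With total counts as library size 31 were lower. Limits of 33% and 67% left 18 gradual miRNAs and 9 detours, and the split by calls of the steps 8 and 4, with 10 not placed. The causes were not tested. On the linear scale the 4 classes held 26, 49, 22 and 11, and 65 of the 108 miRNAs stayed in their class, while 11 of the 17 gradual falls went to one step before competence and 10 of the 12 higher detours to one step after. Leaving out 1 library gave 103 to 119 calls, 58 to 72 higher, 37 to 47 lower, 22 to 33 gradual, 43 to 52 one step after, 17 to 25 one step before and 8 (without Pre-CL 2) to 22 (without CL 2) detours. The replicate block gave 105 calls, 61 higher and 44 lower. Deviations of same-numbered libraries of Pre-CL and PL correlated at -0.20, 0.18 and -0.30, and those of differently numbered ones at -0.26 to 0.38. With 3 libraries per stage these values cannot settle whether the numbers pair the samples. Depth limits the miRNAs near the floor of 3 counts.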
